A study of Mus musculus with 30 samples.

Results

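Resting wild-type natural killer (NK) cells of the mouse were exposed to prostaglandin E2 (PGE2), and their chromatin was compared with that of untreated cells by ATAC-seq, an assay that inserts sequencing adapters into open DNA with a transposase. The comparison took every library of 2 of the 8 groups of the series, 7 of 30 libraries: 3 with PGE2 and no stimulation, and 4 with neither. The cells came from spleens of C57BL/6J mice and were kept in culture for 5 days with low doses of IL-2 and of the complex IL15:IL15Ra, which all groups received. PGE2 was given at 100 ng/ml for 5 h. Of the other groups, 2 pairs serve here for comparison. One pair came from GzmbCre Ptger2-/-Ptger4 fl/fl mice (called the KO here), in which Cre is driven by the granzyme B gene's regulatory sequence and acts on the floxed Ptger4 allele, with 4 resting PGE2 libraries and 3 resting untreated ones. The other pair was wild type (WT) cells, 4 libraries with and 4 without PGE2, and NK1.1, an activating receptor, was engaged during the last 4 of the 5 h. The WT mice carried no GzmbCre, so receptor loss and Cre cannot be told apart. The labels number the libraries (1 to 4 untreated, 2 to 4 with PGE2) and do not say whether they came from separate animals or cultures. The p-values therefore measure the spread between libraries within groups, for limma pooled over all 30 libraries, and that spread may be technical.

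NK cells are lymphocytes that kill virus-infected and tumour cells with perforin and granzymes and recruit other leukocytes with chemokines and interferon gamma. PGE2 is a lipid mediator that acts on them through the receptors EP2 and EP4, which couple to the stimulatory G protein Gs. Gs activates adenylyl cyclase, cyclic AMP (cAMP) rises, and protein kinase A phosphorylates factors such as CREB, which binds the cAMP response element. Phosphodiesterases degrade cAMP, and the repressor CREM and regulators of G protein signalling close the loop. An ATAC-seq peak marks a stretch of open chromatin at a promoter, or at a distal element in an intron or between genes. It measures accessibility near a gene and not the gene's expression.

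The values are normalised counts: reads in a peak divided by a size factor of the library, as the authors deposited them for 38526 peaks. The 7 libraries held 11836631 to 17980324 reads in peaks, and 1 read was worth 0.785 to 1.19 normalised counts. Over log2 values of all tested peaks, Pearson's r was 0.980 to 0.984 for the 9 pairs of libraries within a group and 0.959 to 0.967 for the 12 pairs between groups, as a description across peaks. On the first principal component of the 7 libraries (49.3% of the variance) the PGE2 libraries lay at 42.8, 50 and 42.8 and the untreated ones at −44.5, −34, −29 and −28.1. In bulk libraries a change at a locus in each cell and a change in the share of cells of a kind cannot be told apart. All 14 genes listed as NK cell markers had a peak. Some listed markers of other cells had no peak among those analysed here. These included Cd3g, Cd4, Cd8a and Trac of T cells, Ms4a1, Cd79a and Cd79b of B cells, and Lyz2, Mpo and S100a8 of myeloid cells. Other listed markers did have peaks, among them Cd3d, Cd3e, Cd5, Cd6 and Cd28 of T cells. The same was true of Pax5, Ebf1, Blk and Cr2 of B cells and of Csf1r, Adgre1, Cd14, Cd68, Itgam and Spi1 of myeloid cells. The summed counts at the 15 peaks of T cell marker genes were 3633 to 4145 untreated and 3877 to 4144 with PGE2, at 11 peaks of B cell markers 3024 to 3411 and 3033 to 3250.1, at 13 peaks of myeloid markers 3374 to 3742 and 3688 to 3941, and at 4 peaks of erythroid markers 706 to 802 and 651 to 754. Their part in the results was not tested.

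Most of the peaks that changed were distal, and those are given by position. Promoters of a few genes described in the results are printed as examples. They are the 250 bases before the start of 7 genes from RefSeq, build GRCm38.p6 (the same as mm10), written 5′ to 3′ on the gene's strand. Dusp1, which encodes a phosphatase of MAP kinases (chr17:26508473-26508722, reverse strand), and Maff, which encodes a small Maf factor (chr15:79347270-79347519, forward strand), rose and hold the full palindromic cAMP response element TGACGTCA, in capitals. Gzmb, which encodes granzyme B (chr14:56262335-56262584, reverse strand), rose and holds an AP-1 match (TGANTCA), in capitals. Tigit, which encodes an inhibitory receptor (chr16:43664185-43664434, reverse strand), rose as well. The promoters shown that fell are Ccl3, a chemokine gene (chr11:83649379-83649628, reverse strand), Ncr1, the gene of the activating receptor NKp46 (chr7:4337474-4337723, forward strand), and Klra1, a gene of the Ly49 receptor family (chr6:130386875-130387124, reverse strand), which holds a RUNX match (TGTGGTTT), in capitals.
Dusp1: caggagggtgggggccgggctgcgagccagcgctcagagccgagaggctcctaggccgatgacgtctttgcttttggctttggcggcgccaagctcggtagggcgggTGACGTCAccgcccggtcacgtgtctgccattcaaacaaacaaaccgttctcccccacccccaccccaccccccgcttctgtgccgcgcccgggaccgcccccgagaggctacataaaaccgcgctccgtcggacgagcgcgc
Maff: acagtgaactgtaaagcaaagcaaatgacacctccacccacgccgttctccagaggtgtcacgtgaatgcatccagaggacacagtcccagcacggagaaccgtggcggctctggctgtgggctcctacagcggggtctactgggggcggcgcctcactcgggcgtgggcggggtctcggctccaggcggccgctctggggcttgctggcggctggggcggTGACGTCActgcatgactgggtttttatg
Gzmb: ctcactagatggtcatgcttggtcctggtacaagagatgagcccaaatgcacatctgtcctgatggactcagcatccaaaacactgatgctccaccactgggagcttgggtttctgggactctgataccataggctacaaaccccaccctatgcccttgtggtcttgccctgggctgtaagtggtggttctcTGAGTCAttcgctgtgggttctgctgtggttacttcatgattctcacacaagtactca
Tigit: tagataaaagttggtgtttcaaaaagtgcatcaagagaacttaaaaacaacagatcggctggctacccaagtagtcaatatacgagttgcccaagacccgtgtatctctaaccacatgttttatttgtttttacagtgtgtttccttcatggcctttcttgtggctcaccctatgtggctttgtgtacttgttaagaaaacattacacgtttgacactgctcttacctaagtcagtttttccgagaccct
Ccl3: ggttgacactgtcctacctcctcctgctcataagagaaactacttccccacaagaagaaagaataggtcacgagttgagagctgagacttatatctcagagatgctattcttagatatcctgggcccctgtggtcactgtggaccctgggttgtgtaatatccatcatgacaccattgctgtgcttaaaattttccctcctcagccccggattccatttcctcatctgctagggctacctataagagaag
Ncr1: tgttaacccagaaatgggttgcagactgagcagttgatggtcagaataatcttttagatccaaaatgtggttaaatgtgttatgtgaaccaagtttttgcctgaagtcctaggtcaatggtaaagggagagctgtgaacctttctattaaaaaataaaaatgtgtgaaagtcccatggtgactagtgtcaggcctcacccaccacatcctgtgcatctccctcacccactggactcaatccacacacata
Klra1: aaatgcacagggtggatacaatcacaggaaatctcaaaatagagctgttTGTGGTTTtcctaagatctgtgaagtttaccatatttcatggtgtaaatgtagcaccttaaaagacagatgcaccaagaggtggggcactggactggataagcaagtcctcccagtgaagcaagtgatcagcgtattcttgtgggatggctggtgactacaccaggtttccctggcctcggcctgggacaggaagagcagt
The element begins 143 bases before the start in Dusp1 and 29 bases before it in Maff, the AP-1 match 58 bases before it in Gzmb and the RUNX match 201 bases before it in Klra1. A match is a description of letters, not a bound site.

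PGE2 opened far more distal elements than it closed, and promoters changed seldom. With limma on log2(normalised count + 1), 5740 of 38525 tested peaks (14.9%) passed an adjusted p of 0.05. Of these, 4186 were more accessible with PGE2 (10.9%) and 1554 less (4.03%). The rises were also larger. Among called peaks, 1273 rose by at least 1 on the log2 scale and 97 by at least 2, while 41 fell by at least 1. The median rise was 0.77 and the median fall −0.49, against a median of −0.01 over all tested peaks. Peaks in which all 3 PGE2 libraries lay above all 4 untreated ones numbered 5864 (15.2%), and those in which all lay below numbered 4041 (10.5%). The count of lower peaks leaned on PGE2 library 3: without it 826 passed the limma test, and 3352 higher ones did.

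The opened peaks were distal, narrow and weak before treatment. Their median width was 970 bp, against 1067 bp over all tested peaks and 1173 bp in the closed ones. The median level of the opened peaks went from 105 normalised counts untreated to 187 with PGE2, whereas the closed peaks stood at 287 untreated and 203 with PGE2. The median distance to the nearest RefSeq start was 18505 bp for opened peaks, 12664 bp for closed ones and 10777 bp for all tested (outside chromosome 18). Only 5.93% of the opened peaks lay within 1000 bp of a start, compared with 17.5% of the closed and 27.1% of all. By the table's own classes, 16% of 12699 intron peaks and 14.5% of 10483 intergenic peaks rose, against 11% of 3295 exon peaks and 2.2% of 12048 promoter peaks. Falls were spread more evenly, at 4.39%, 5.16%, 4.73% and 2.49% of the same classes. Among the 9632 peaks with the lowest untreated level 15.8% rose and 0.945% fell, and in the 9631 with the highest 5.09% rose and 5.08% fell. The power differed along that scale, since the median standard error of a log2 change was 0.257 in the lowest set and 0.091 in the highest. The untreated level is also a term of the log2 change. Sorting or selecting peaks by either can therefore tilt the other, and how much of these patterns follows from that was not tested. The share of all normalised counts that fell in promoter peaks was 60.2%, 59.2%, 58.7% and 58.1% untreated and 57.1%, 59.3% and 56.9% with PGE2. These groups overlapped, and the difference of −1.30 percentage points had p = 0.2 in a two-sided exact permutation test (35 assignments, smallest possible p 0.0286).

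The strongest openings were at distal peaks that were weak before treatment. An intronic peak of Myo16, an unconventional myosin gene (chr8:10589264-10590451), held 19.6, 22.4, 14.7 and 27.5 normalised counts in the untreated libraries and 246, 294 and 235 with PGE2. The groups did not overlap (log2 change 3.58 ± 0.33, limma adjusted p = 2.27e-10). Here and below, ± after a log2 change is limma's standard error, and ± after a normalised count is the SD between libraries. PD-1 is an inhibitory receptor, and a distal peak of its gene Pdcd1 (chr1:94074313-94075538) went from 47.1, 66.1, 51.1 and 50.2 to 636, 614 and 474. Its lowest PGE2 library was several times its highest untreated one, and it rose by 3.40 ± 0.24, limma adjusted p = 2.07e-13. A peak between genes near Uchl5, a deubiquitinase gene (chr1:143853538-143854505), held 16.5, 18.5, 24.5 and 38.2 untreated and 253, 232 and 229.5 with PGE2 (log2 change 3.31 ± 0.26). An intronic peak of Klc1, a kinesin light chain gene (chr12:111767827-111768943), held 10.99, 15.5, 16.7 and 9.55 untreated and 130.5, 143 and 95.7 with PGE2. Every untreated library was low there, and the log2 change was 3.14 ± 0.23, limma adjusted p = 5.18e-13.

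The genes of 2 transcription factors belong with them. The intronic Stat3 peak (chr11:100933480-100934628), in the gene of a transcription factor activated by cytokine receptors, held 99.7, 95.2, 90.3 and 103 untreated and 635, 691 and 635 with PGE2. Both groups were tight. This rise of 2.74 ± 0.13, limma adjusted p = 6.77e-18, had the smallest p of the peaks named here. A Stat3 intron peak beside it rose by 1.42 ± 0.17, another fell (−0.65 ± 0.16, limma adjusted p = 0.00333), and the Stat3 promoter stood at 2157 and 2255 normalised counts (limma adjusted p = 0.825). In Etv6, which encodes an ETS-family repressor, an intronic peak (chr6:134251831-134252750) went from 40.8, 50.5, 53.02 and 27.5 to 297, 261 and 270.3, without overlap (log2 change 2.70 ± 0.17, limma adjusted p = 3.32e-14). By the naming rule the largest promoter-class rise was at Rgs1, a regulator of G protein signalling (chr1:144250387-144250915), from 14.1, 3.89, 14.7 and 19.1 to 79.3, 92.3 and 84.2 (log2 change 2.80 ± 0.39, limma adjusted p = 1.34e-06). That peak lay 53233 bp from the nearest RefSeq start, and the class is the table's. Next came Ccnl1, which encodes a cyclin linked to splicing (chr3:65960175-65960738), with 54.2, 57.3, 62.8 and 62.1 untreated and 247, 256 and 243 with PGE2 (log2 change 2.06 ± 0.12, limma adjusted p = 4.46e-15).

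**Figure D1:**
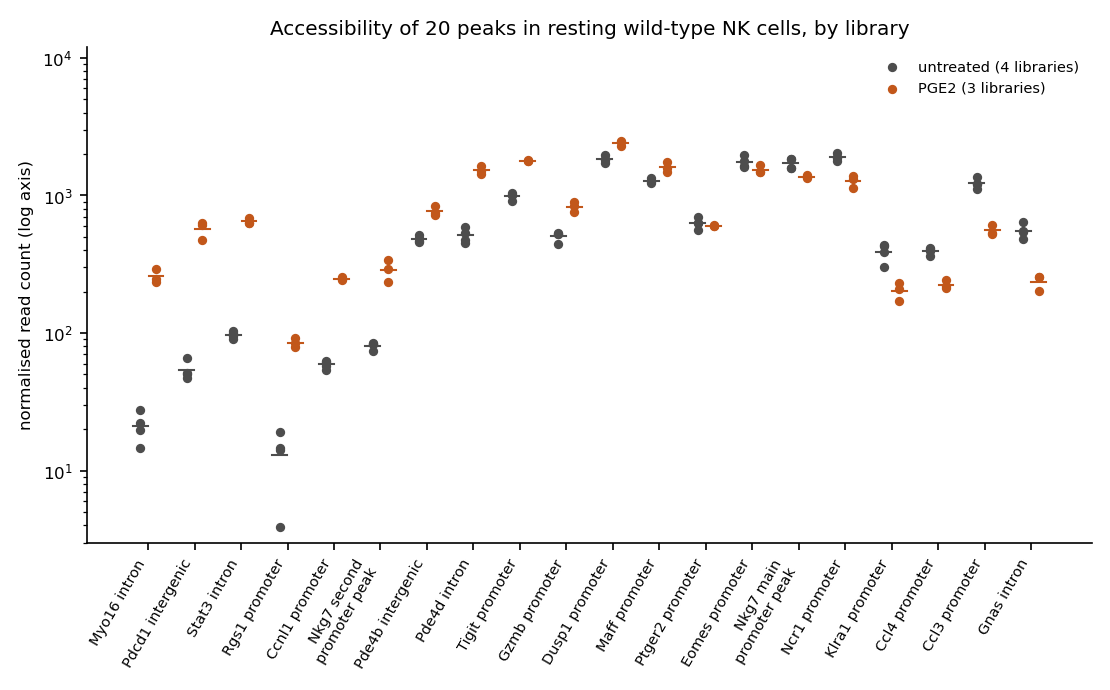
Normalised counts (log axis) of 20 peaks in each resting WT library, with grey points for the 4 untreated libraries, orange points for the 3 PGE2 libraries and a bar for each group's mean. Peaks that opened from a low level, such as Pdcd1 and Stat3, show wide gaps, and promoters that were already open, such as Dusp1 and Ncr1, show small ones.

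Closings were smaller and mostly started from elements that were well open. An intron peak of Gnas, which encodes the alpha subunit of Gs itself, fell (chr2:174343777-174344835), with 546, 637, 481 and 553 untreated and 255, 201 and 255 with PGE2. All 3 treated libraries lay far below the untreated range, at −1.22 ± 0.16, limma adjusted p = 5.2e-07 on the log2 scale, whereas the other 2 Gnas peaks did not pass the test (−0.25 and 0.04). A peak near Slc38a1, an amino acid transporter gene (chr15:96542989-96543933), fell from 471 ± 34.5 (SD, n = 4) to 203 ± 34.5 (SD, n = 3), with no overlap (log2 change −1.22 ± 0.13, limma adjusted p = 3.28e-09). Near Ncald, which encodes the calcium sensor neurocalcin delta (chr15:37805933-37806736), a weaker peak fell from 55.4 ± 8.82 to 23.1 ± 7.67 (−1.26 ± 0.25, limma adjusted p = 0.000307). An intronic peak of Tnfsf8, the gene of CD30 ligand (chr4:63841851-63842895), held 219, 204, 164 and 186 untreated and 88.7, 81.3 and 94.8 with PGE2, again without overlap (log2 change −1.12 ± 0.14, limma adjusted p = 9.04e-08).

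No peak of the PGE2 receptors passed the test, and peaks of genes that degrade cAMP did. The Ptger2 promoter, of EP2 (chr14:44988181-44990885), held 559.8, 633, 627 and 699 untreated and 604, 601 and 609 with PGE2. The PGE2 libraries lay inside the untreated range (−0.05 ± 0.12, limma adjusted p = 0.838). The Ptger4 promoter, of EP4, was 1047 ± 112 untreated and 907 ± 74.1 with PGE2 (−0.20 ± 0.11, limma adjusted p = 0.235), and none of the 6 Ptger4 peaks passed the test. In the list of prostanoid receptors and the Gs pathway, 9 of 117 peaks rose and 6 fell (3 without PGE2 library 3, median −0.01), against 10.9% and 4.03% of all tested peaks. Among cAMP phosphodiesterases 16 of 81 peaks rose and 2 fell, with a median log2 change of 0.17. Pde4d accounted for 7 of its 23 peaks and Pde4b for 5 of 18. The leading Pde4d intron peak (chr13:109821677-109823366) held 535, 452, 595 and 475 untreated and 1441, 1629 and 1502 with PGE2, so every treated library was far above any untreated one (log2 change 1.57 ± 0.09, limma adjusted p = 4.14e-15). A distal Pde4b peak (chr4:102607600-102608706) rose from 485 ± 23.4 to 771 ± 63.4 (0.67 ± 0.09, limma adjusted p = 2.27e-07).

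The CREB circuit as a list was near the background, and single members changed. Across CREB, CREM, CRTC and SIK genes 11 of 74 peaks rose (14.9%) and 4 fell (5.41%), against 10.9% and 4.03% of all tested peaks (median −0.004). The salt-inducible kinases restrain the CREB coactivators CRTC until protein kinase A silences them. Of 11 Sik1 peaks 6 rose and none fell, led by a distal peak (chr17:31840327-31841084) with 109, 103, 129.6 and 81.2 untreated and 232, 252 and 234 with PGE2 (log2 change 1.19 ± 0.14, limma adjusted p = 7.96e-08). At Sik3, 2 of 18 peaks rose and 4 fell. One intron peak (chr9:46082965-46084086) rose from 32.6 ± 9.86 to 109 ± 11.4 (1.75 ± 0.20, limma adjusted p = 2.28e-08), and another (chr9:46151270-46152167) fell from 363 ± 33.5 to 202 ± 15.8 (−0.84 ± 0.12, limma adjusted p = 1.69e-06). An intronic peak of Crem (chr18:3280500-3282077) held 406, 359.6, 343 and 363 untreated and 672, 577 and 534 with PGE2, with no overlap (0.69 ± 0.11, limma adjusted p = 6.81e-06), while the second Crem peak did not pass the test.

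Of 134 peaks at immediate cAMP-responsive genes, 31 rose (23.1%) and 6 fell (4.48%, 3 peaks without PGE2 library 3), against 10.9% and 4.03% of all tested peaks, and 15 of the genes had a rising peak. Distal Rgs2 (chr1:144075851-144077202), of a regulator that shortens G protein signals, rose from 48.5 ± 7.90 to 209 ± 37.2 (2.08 ± 0.24, limma adjusted p = 3.18e-08). Fosl2, the gene of an AP-1 subunit, rose at a promoter-class peak (chr5:32132602-32133948) with 227, 187, 198 and 199 untreated and 597, 588 and 407 with PGE2 (1.36 ± 0.11, limma adjusted p = 2.11e-11). The Dusp1 promoter printed above (chr17:26507089-26509468) held 1957, 1839, 1805 and 1731 untreated and 2483, 2437 and 2295 with PGE2. That promoter was wide open before treatment, its groups did not overlap, and its rise was small (0.39 ± 0.09, limma adjusted p = 0.00128). The Maff promoter, the other one with a full element, moved by a like amount, with 1277 ± 39.2 untreated and 1608 ± 129 with PGE2 (0.33 ± 0.08, limma adjusted p = 0.00161).

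Genes of inhibitory receptors and of adenosine production rose at a higher share than all peaks did. In their list 20 of 79 peaks rose (25.3%) and 2 fell (2.53%), against 10.9% and 4.03% of all tested peaks (median 0.11). At Pdcd1 5 of 7 peaks rose, among them a second distal peak (chr1:94055688-94056590) from 36.9 ± 12.2 to 136 ± 5.71 (1.93 ± 0.20). The Pdcd1 promoter itself stayed near closed, at 19.9 and 20.6 normalised counts (limma adjusted p = 0.823). The Tigit promoter printed above (chr16:43663747-43665296) held 1003, 1013, 916 and 1049 untreated and 1793, 1811 and 1767 with PGE2. Both groups were compact and far apart (0.85 ± 0.08, limma adjusted p = 2.55e-10), and 5 of 9 Tigit peaks rose. Havcr2 encodes the receptor TIM-3, and an exon peak of it (chr11:46466488-46467390) rose from 95.1 ± 15.2 to 233 ± 10.4 (1.30 ± 0.18, limma adjusted p = 6.8e-07). Nt5e encodes CD73, the enzyme that makes adenosine from AMP. Its distal peak (chr9:88276060-88276719) held 8.64, 13.6, 9.82 and 8.36 untreated and 82.5, 61.2 and 84.2 with PGE2 (2.80 ± 0.26, limma adjusted p = 2.85e-10), and a neighbour rose from 169.9 ± 25.8 to 399 ± 26.3 (1.24 ± 0.17). The Nt5e promoter did not pass the test (510 and 501 normalised counts, limma adjusted p = 0.924). Of the remaining genes, Lag3 lost 1 of 4 peaks, and neither of 2 Cd274 peaks nor any of 4 Klrc1 peaks passed.

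Inflammatory chemokine genes on chromosome 11 lost accessibility, mainly Ccl3, Ccl4 and Ccl9. All 3 Ccl4 peaks, 4 of 5 Ccl3 peaks, all 5 Ccl9 peaks and 1 of 7 Ccl5 peaks fell, and none of these 20 rose. Among other chemokine genes, Ccl1 gained 1 of 11 peaks and lost 1, and Xcl1 gained 3 of 12 and lost none. The Ccl3 promoter printed above (chr11:83646107-83649993) held 1219, 1366, 1217 and 1107 untreated and 611, 526 and 534 with PGE2. The treated libraries lay at about the same level, far below the untreated ones (−1.14 ± 0.13, limma adjusted p = 3.44e-08). A weak Ccl3 peak nearby (chr11:83641258-83641649) fell from 104 ± 13.5 to 45.99 ± 12.5 (−1.18 ± 0.16). The Ccl4 promoter (chr11:83662037-83663090) held 363, 411, 413 and 398 untreated and 212, 243 and 221 with PGE2, without overlap (−0.81 ± 0.12, limma adjusted p = 3.84e-06). The promoter of Ccl9 (chr11:83578203-83579609) fell from 124 ± 11.3 to 70.7 ± 20.7 (−0.83 ± 0.17, limma adjusted p = 0.000462), and that of Ccl5 (chr11:83529240-83530831) from 544 ± 41.2 to 371 ± 39.5 (−0.55 ± 0.14, limma adjusted p = 0.0052). These genes are close relatives, so reads of similar sequence may be split between them. In the whole list of cytokines and chemokines 22 of 126 peaks rose (17.5%) and 17 fell (13.5%), against 10.9% and 4.03% of all tested peaks.

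Of other effector genes, Fasl gained peaks at a high share, and Ifng gained them at about the share of all tested peaks (10.9%). At Fasl, which encodes the death receptor ligand, 10 of 21 peaks rose and none fell, the peak chr1:161734238-161736059 going from 594 ± 60.1 to 1049.5 ± 25.7 (0.83 ± 0.08, limma adjusted p = 6.01e-10). The interferon gamma gene Ifng gained 2 of 18 peaks, near that background, and its promoter did not pass the test. The distal Ifng peak chr10:118458536-118459491 held 120.1, 129, 90.3 and 109 untreated and 216, 204 and 206 with PGE2, a rise of 0.90 ± 0.12, limma adjusted p = 6.52e-07, and a neighbour rose by 0.75 ± 0.12. The Ifng promoter held 398, 427, 381 and 349 untreated and 317, 326 and 337 with PGE2. All its treated libraries lay below the untreated ones, yet the change of −0.25 ± 0.10, limma adjusted p = 0.104 missed the threshold. An exon peak assigned to the gene of the cytokine IL-10 (chr1:131022330-131023378) rose from 175 ± 39.8 to 363 ± 46.7 (1.07 ± 0.14, limma adjusted p = 2.36e-07), and it lay 59322 bp from the nearest start.

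NK identity genes lost accessibility more often than they gained it. Of the 77 peaks at 14 NK marker genes 16 fell (20.8%) and 6 rose (7.79%), against 4.03% and 10.9% of all tested peaks. Their median log2 change was −0.16. Without PGE2 library 3, 7 of the 77 fell, and so did 826 of all 38525 tested peaks. The summed level of these peaks was 38330 to 42001 in the untreated libraries and 33019 to 36960 with PGE2, ranges that did not overlap. The Ncr1 promoter printed above (chr7:4337228-4340115) held 1867, 2053, 1766 and 1916 untreated and 1325, 1139.7 and 1379 with PGE2. All treated libraries lay below all untreated ones (−0.57 ± 0.10, limma adjusted p = 4.44e-05). Near Klrk1, the gene of NKG2D, a peak (chr6:129626942-129628098) fell from 517 ± 46.3 to 365 ± 57.99 (−0.51 ± 0.10, limma adjusted p = 0.000233), and 3 of 6 Klrd1 and 3 of 5 Klre1 peaks fell. In the Ly49 cluster the Klra1 promoter (chr6:130386673-130387821) held 386, 439, 302 and 429 untreated and 208, 172 and 229.5 with PGE2 (−0.93 ± 0.15, limma adjusted p = 1.11e-05), and members of that family are too alike for a sure assignment. The master regulator Eomes did not pass at any of 3 peaks, its promoter being 1747 ± 162 untreated and 1539 ± 101 with PGE2 (−0.18 ± 0.10, limma adjusted p = 0.262). Tbx21, which encodes T-bet, rose at 2 of 10 peaks and fell at 1. For activating receptors and adaptors as a list, 14 of 185 peaks rose and 19 fell (10.3%, median −0.07), and 9 fell without PGE2 library 3.

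Nkg7, a granule protein gene needed for degranulation, had 1 promoter-class peak that fell and 1 that rose. Its main promoter peak, 36 bp from the RefSeq start (chr7:43436201-43438003), held 1831, 1849, 1586 and 1578 untreated and 1419, 1335 and 1352 with PGE2. It fell by a small amount (−0.32 ± 0.09, limma adjusted p = 0.012). The fall missed the threshold without PGE2 library 3 (limma adjusted p = 0.0532) or without untreated library 2 (limma adjusted p = 0.0517). The second promoter-class peak, 2234 bp from a start (chr7:43434624-43435185), held 73.8, 82.6, 84.4 and 83.6 untreated and 235, 339 and 294 with PGE2. It was weak in every untreated library and rose by 1.81 ± 0.19, limma adjusted p = 3.26e-09. Cytotoxic granule genes as a list had 17 of 82 peaks higher (20.7%) and 4 lower (4.88%), against 10.9% and 4.03% of all tested peaks. Without PGE2 library 2 the higher count was 11, and the lower count fell to 1 or 2 without PGE2 library 3 or 4 or untreated library 1 or 2. The Gzmb promoter printed above (chr14:56261712-56262972) held 528, 534, 528 and 447 untreated and 898, 759 and 836 with PGE2, without overlap (0.71 ± 0.09, limma adjusted p = 4.61e-07). Of 9 Gzmb peaks 3 rose and 1 fell, the fall (chr14:56293113-56293692) being from 135 ± 9.65 to 72.9 ± 8.36 (−0.88 ± 0.16). A promoter-class peak of Serpinb9, which encodes the inhibitor that protects killer cells from their own granzyme B (chr13:33001144-33001939), rose from 98.4 ± 8.18 to 219 ± 10.6 (1.15 ± 0.14, limma adjusted p = 5.67e-08). No peak of Prf1 (5 peaks) or Gzma (3 peaks), the genes of perforin and granzyme A, passed the test.

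Cytokine receptor and STAT genes had higher shares of rises and of falls than all peaks, the falls among cytokine receptors depending on single libraries. Ptpn6 fell at all of its own peaks. In the cytokine receptor list 23 of 137 peaks rose (16.8%) and 10 fell (7.30%), against 10.9% and 4.03% of all tested peaks. The number that fell was 2 without PGE2 library 2, 3 without PGE2 library 3 or 4, 4 without untreated library 1 and 6 without untreated library 2 or 4. Among JAK, STAT and SOCS genes 16 of 97 rose (16.5%) and 7 fell (7.22%). An intronic Ifngr1 peak, in the gene of the interferon gamma receptor (chr10:19593310-19594954), held 181, 162, 192 and 188 untreated and 726, 705 and 635 with PGE2 (1.92 ± 0.18, limma adjusted p = 2.65e-10). An exon peak assigned to Stat5a, the gene of a factor downstream of IL-2 and IL-15 (chr11:100882986-100884006), rose from 42.2 ± 10.1 to 141 ± 4.39 (1.75 ± 0.25, limma adjusted p = 1.84e-06). All 3 peaks of Ptpn6, which encodes the phosphatase SHP-1 used by inhibitory receptors, fell. Its intron peak (chr6:124729587-124730660) held 452, 395, 359 and 303 untreated and 190.0, 189 and 196 with PGE2, and the groups lay well apart (−0.96 ± 0.12, limma adjusted p = 1.74e-07). In the TGF-beta and tissue residency list 20 of 153 peaks rose and 6 fell, near the background, and 2 to 3 fell without any one PGE2 library or untreated library 1. An exon peak of Tgfbr2, the gene of the type II TGF-beta receptor (chr9:116083729-116085197), rose from 121 ± 24.8 to 307 ± 29.5 (1.35 ± 0.15, limma adjusted p = 7.09e-09).

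Migration genes had 30 of 189 peaks higher (15.9%) and 9 lower (4.76%), against 10.9% and 4.03% of all tested peaks, and 5 lower without PGE2 library 3. Cxcr4, whose product holds cells in bone marrow, gained 9 of 17 peaks. A distal one (chr1:128712666-128713596) went from 82.1 ± 10.04 to 239 ± 36.5 (1.53 ± 0.14, limma adjusted p = 8.79e-11). S1pr5 acts the other way and lets NK cells leave marrow and lymph nodes. A promoter-class peak of S1pr5 (chr9:21249695-21250753) held 641, 774, 696 and 813 untreated and 415, 442 and 499 with PGE2, and the groups lay apart (−0.69 ± 0.10, limma adjusted p = 2.48e-06). The integrin beta 3 gene Itgb3 rose at 9 of 10 peaks, with an intron peak (chr11:104629462-104631745) at 259.8 ± 16.7 untreated and 712 ± 19.8 with PGE2 (1.45 ± 0.10, limma adjusted p = 2.66e-13).

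**Figure D2:**
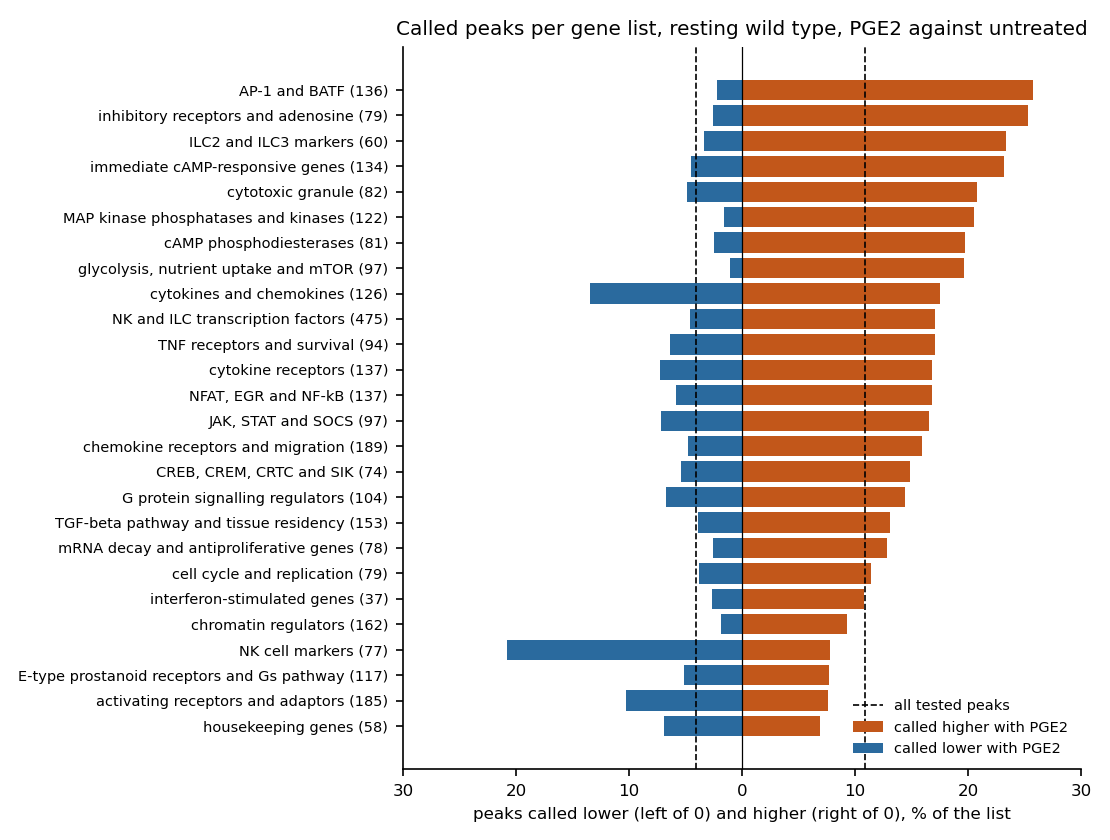
Share of peaks called higher (orange, right of 0) and lower (blue, left of 0) in each of 26 gene lists with at least 20 peaks, the number of peaks in brackets, and dashed lines for all tested peaks (10.9% and 4.03%). AP-1 and inhibitory receptor lists have the longest bars to the right, NK cell markers the longest to the left.

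Among transcription factors, AP-1 and BATF genes stood farthest above the background of rises. They had 35 of 136 peaks higher (25.7%) and 3 lower (2.21%), against 10.9% and 4.03% of all tested peaks, and 13 of the 35 belong to Bach2, the gene of a repressor that competes for AP-1 elements and preserves resting lymphocytes. A Bach2 intron peak (chr4:32342857-32344521) rose from 755 ± 38.8 to 1401 ± 64.7 (0.89 ± 0.09, limma adjusted p = 7.07e-10). A distal one (chr4:32587487-32588873) held 128, 197, 168 and 232 untreated and 472, 554 and 518 with PGE2 (1.53 ± 0.20, limma adjusted p = 2.21e-07). Among NK and ILC transcription factors 81 of 475 peaks rose (17.1%) and 22 fell (4.63%), and for NFAT, EGR and NF-kB genes and their regulators 23 of 137 rose (16.8%) and 8 fell (5.84%). The fallen peaks numbered 1 for AP-1 without PGE2 library 3 or 4 or untreated library 1 or 3, and 5 for the NFAT list without PGE2 library 2 or 4 or untreated library 4. A peak near Tnfaip3, which encodes the NF-kB inhibitor A20 (chr10:18998997-19000724), went from 62.03, 39.8, 45.2 and 81.2 to 231, 245 and 211 (2.04 ± 0.18, limma adjusted p = 8.67e-11). In those lists Ikzf3, the gene of Aiolos, lost 4 of 10 peaks and gained none, Runx2 gained 8 of 20, and Zbtb16 lost 2 of 18.

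Over all tested peaks 10.9% rose and 4.03% fell. MAP kinase genes rose at a higher share, and so did the metabolic list, mostly through Rptor and Ddit4. MAP kinases and their phosphatases had 25 of 122 peaks higher (20.5%) and 2 lower (1.64%), and a distal Map3k1 peak (chr13:111826412-111827236) rose from 16.3 ± 5.19 to 72.3 ± 12.05 (2.13 ± 0.28, limma adjusted p = 3.47e-07). For glycolysis, nutrient uptake and mTOR genes 19 of 97 rose (19.6%) and 1 fell (1.03%). Most of the 19 were at the mTOR regulators Rptor and Ddit4. Of the glycolytic enzymes only Ldha, Eno1 and Pkm gained a peak, 1 each. Rptor, which encodes the mTOR complex 1 scaffold Raptor, gained 8 of 14 peaks, one of which (chr11:119643121-119644720) went from 133 ± 14.2 to 324 ± 20.96 (1.28 ± 0.13, limma adjusted p = 2.18e-09). Ddit4, whose product restrains the same complex, gained 3 of 5, led by chr10:59964248-59965297 (22.9 ± 2.42 untreated, 74.6 ± 5.35 with PGE2, 1.66 ± 0.18, limma adjusted p = 7.65e-09). In the TNF receptor and survival list 16 of 94 rose (17.02%) and 6 fell (6.38%), and an intron peak of Cflar, the gene of the caspase inhibitor c-FLIP (chr1:58742231-58743366), rose by 1.76 ± 0.21, limma adjusted p = 6.11e-08. Chromatin regulators as a list had 15 of 162 peaks higher (9.26%, under the background) and 3 lower. Without PGE2 library 2 the higher count was 8, and without untreated library 4 the lower count was 8. Of class II deacetylase genes, Hdac4 rose at an intron peak (chr1:92086107-92087415, 1.64 ± 0.17, limma adjusted p = 3.87e-09) and Hdac9 fell at one (chr12:34783402-34784365, −0.88 ± 0.19, limma adjusted p = 0.000994). Interferon-stimulated genes had 4 of 37 peaks higher (10.8%) and 1 lower (2.70%), and cell cycle genes 9 of 79 (11.4%) and 3 (3.80%). For mRNA decay genes the counts were 10 of 78 higher (12.8%) and 2 lower (2.56%). G protein signalling regulators had 15 of 104 higher (14.4%) and 7 lower (6.73%). Housekeeping genes had 4 of 58 higher and 4 lower (6.90% each), each count down to 1 when a library was left out. Of markers of helper-like innate lymphoid cells (ILC2 and ILC3) 14 of 60 peaks rose and 2 fell, and their summed level was 14095 to 15485 untreated and 16479 to 17583 with PGE2, with no overlap. For T cell markers 6 of 15 peaks rose (3 without PGE2 library 2, 3 or 4) and 1 fell, for B cell markers none of 11 rose and 2 fell, for myeloid markers 2 of 13 rose and 1 fell, and no erythroid peak of 4 passed.

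Some genes held several changed peaks, and a small part of the changed peaks were neighbours. Of 14886 genes named, 3503 had a called peak, 354 had at least 3 peaks higher, 70 had at least 3 lower, and 340 had both. Gm20388 (14 of 99 peaks), Bach2 (13 of 36), Atp10a (11 of 33), Fasl (10 of 21), Itgb3 (9 of 10), Cd47 (9 of 28), Pik3r1 (9 of 32) and Cxcr4 (9 of 17) held the most rising peaks. Cd47 encodes a signal that restrains phagocytes, and Pik3r1 a regulatory subunit of PI3 kinase. The most falling peaks were at Dad1 (6 of 42) and Gm17746 (6 of 39), followed with 5 each by Coro2a (of 12), Tle4 (of 18), Lrrk1 (of 21), Mir6388 (of 41), Ccl9 (of 5) and Adam6b (of 7). Over all tested peaks 10.9% rose and 4.03% fell, so a gene with many assigned peaks can rank high by number alone. Peaks assigned to Gm20388 were spread over chr8:119927606-124177906, those of Gm17746 over chr12:25117417-25628535 and those of Mir6388 over chr12:115105416-115869378. Neighbouring peaks called the same way formed 52 runs of at least 4 higher peaks (248 of the 4186 peaks) and 12 runs of lower ones (55 of the 1554 peaks). The longest higher run covered 10 peaks at Itgb3 and Gm11639 (chr11:104599379-104692815), with log2 changes from 0.44 to 2.06, and the longest lower run held 7 peaks. A run of 7 higher peaks lay at Pdcd1lg2, the gene of the PD-1 ligand PD-L2, with changes from 0.34 to 1.72.

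Some loci opened and closed at once. Dad1, beside the T cell receptor alpha and delta genes, had 6 peaks higher and 6 lower of 42, and Pvt1, a long noncoding RNA gene, 7 and 3 of 26. A distal peak assigned to Dad1 (chr14:53802254-53803069) held 119, 132, 133 and 123 untreated and 236, 254 and 271 with PGE2 (0.99 ± 0.13, limma adjusted p = 4.79e-07), while the lowest log2 change at that gene was −0.79. Chsy1 and 4930459C07Rik had 4 peaks in each direction. Rgs1 gained 5 of 16 peaks and lost 1, by −1.19 on the log2 scale.

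**Figure D3:**
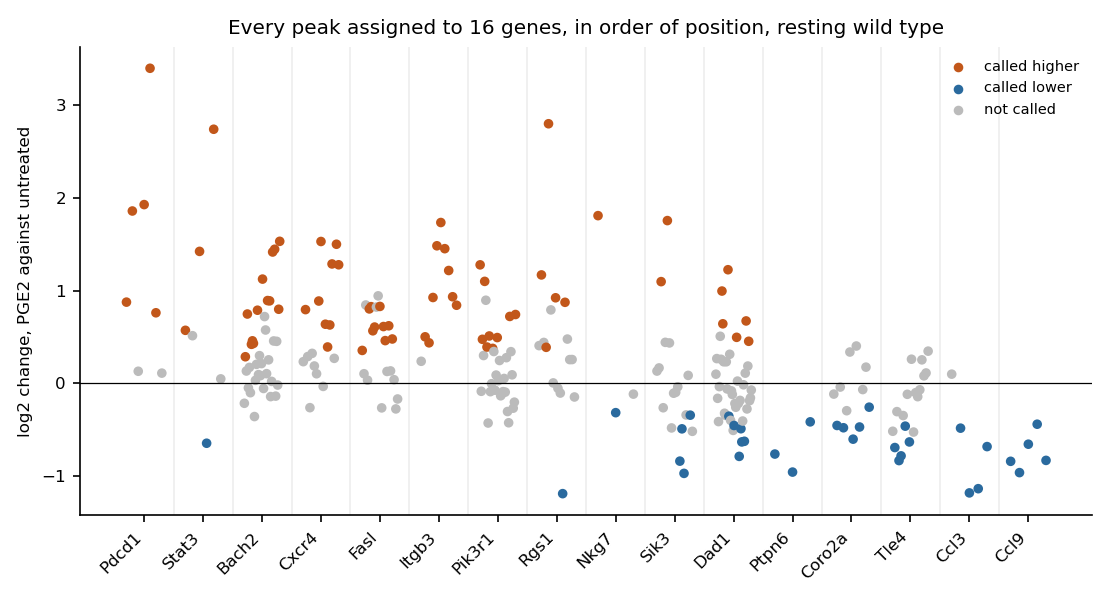
Log2 change with PGE2 (vertical axis) of every peak assigned to 16 genes, spaced evenly in order of position, in orange where called higher, blue where called lower and grey where not called. Bach2, Cxcr4, Fasl and Itgb3 hold only orange and grey points, Ptpn6 and Ccl9 only blue ones, and Sik3 and Dad1 hold both.

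No peak of the KO passed the test with PGE2. The limma count in resting KO cells was 0 of 38525 peaks (0.0%), 1520 having an unadjusted p under 0.05, and edgeR and DESeq2 called 0 as well, with 1245 and 1267 at that unadjusted level. The difference of the PGE2 effects, WT minus KO, passed in limma at 2381 peaks (6.18%), 1903 of them (4.94%) more positive in WT and 478 (1.24%) more negative. The KO libraries are not shared with the WT comparison. At the 4186 peaks opened in WT the median log2 change in the KO was 0.06, and 63.8% had a positive sign there, against 52.2% of all tested peaks. At the 1554 closed peaks the median in the KO was 0.01, and 45% had a negative sign. The distal Pdcd1 peak was 49.4 ± 12.1 in untreated KO (n = 3) and 69.8 ± 32.7 with PGE2 (n = 4), a change of 0.41 ± 0.24, and the difference from WT was 2.99 ± 0.34, limma adjusted p = 1.34e-07. Klc1 had the largest difference of the peaks printed, 3.13 ± 0.32, limma adjusted p = 2.93e-08, its KO peak standing at 27.8 ± 4.59 and 28.3 ± 6.45. Stat3 differed by 2.44 ± 0.18, limma adjusted p = 2.27e-11. On the falling side the Ccl3 promoter stayed at 977 ± 184 and 968 ± 163 in the KO (−1.13 ± 0.19, limma adjusted p = 9.75e-05 for the difference), Gnas at 548 ± 22.5 and 559 ± 37.99 (−1.25 ± 0.23, limma adjusted p = 0.000392), and Ncr1 at 1437 ± 102 and 1484 ± 155 (−0.61 ± 0.14, limma adjusted p = 0.00405). The Rgs1 promoter-class peak went from 11.2 ± 8.44 to 21.6 ± 3.81 in the KO, and its difference missed the threshold (1.63 ± 0.56, limma adjusted p = 0.077). The Ptger2 promoter, a check of the labels, held 113 ± 18.2 in the untreated KO, far under the WT level given above. The Ptger4 promoter did not differ in this way, at 1051 ± 90.7 in the untreated KO and 1047 ± 112 in untreated WT, and no source used here says whether its peak lies in the floxed part.

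NK1.1 stimulation changed which peaks PGE2 moved. In stimulated WT cells, libraries not shared with the resting comparison, limma called 15619 peaks (40.5%), 7767 higher and 7852 lower with PGE2. Which side was larger depended on the scaling, since 8491 were higher and 7038 lower when all libraries were scaled to an equal total in peaks. Of the peaks opened at rest, 2132 were also higher with PGE2 during stimulation, which is 50.9% of the opened and 27.4% of the 7767. Another 497 were lower, 11.9% of the opened and 6.33% of the 7852. Of the peaks closed at rest, 550 were lower under stimulation too (35.4% of the closed, 7% of the 7852) and 197 were higher (12.7% and 2.54% of the 7767). Among all tested peaks 20.2% were higher and 20.4% lower under stimulation. The test of the difference itself, stimulated minus resting effect, passed at 9757 peaks (25.3%), 4088 more positive under stimulation and 5669 more negative.

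**Figure D4:**
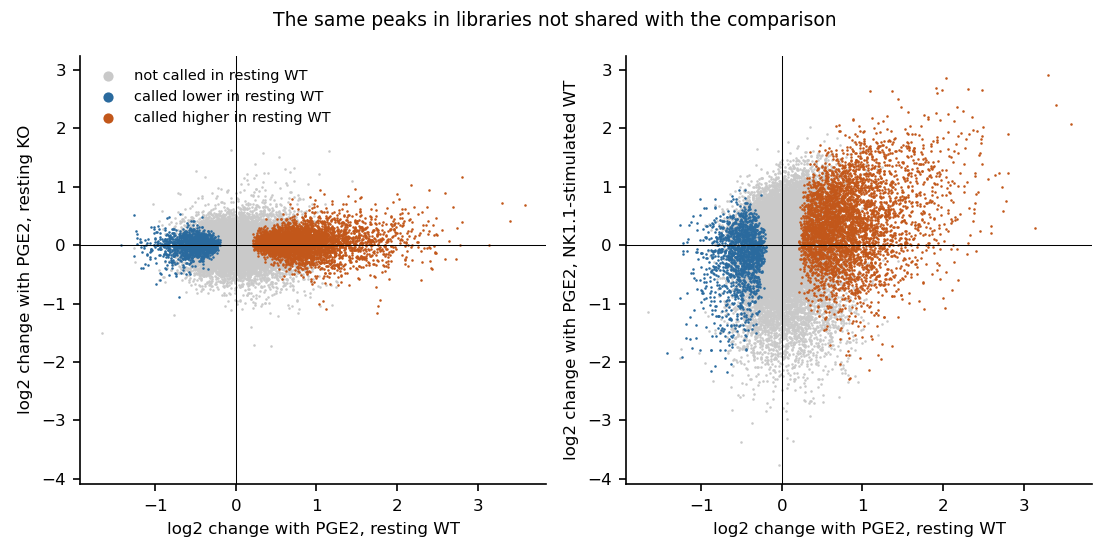
Log2 change with PGE2 in resting WT cells (horizontal axis) against that in resting KO cells (left) and in stimulated WT cells (right), 1 point per tested peak, coloured by its call in resting WT. Coloured points lie flat around 0 in the KO (medians 0.06 and 0.01) and spread up and down in stimulated cells, where 497 peaks opened at rest were called lower.

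At some inhibitory, homing and receptor genes PGE2 raised accessibility in both states. Tigit rose at rest by 0.85 ± 0.08 and under stimulation by 0.89 ± 0.07, and the difference was 0.04 ± 0.11, limma adjusted p = 0.811. Bach2 at chr4:32342857-32344521 rose by 0.89 ± 0.09 and 1.06 ± 0.08 (difference 0.17 ± 0.12, limma adjusted p = 0.326), Itgb3 by 1.45 ± 0.10 and 1.37 ± 0.10 (difference −0.08 ± 0.14, limma adjusted p = 0.727), and Ifngr1 by 1.92 ± 0.18 and 1.86 ± 0.17 (difference −0.06 ± 0.25, limma adjusted p = 0.891). A p above the threshold does not show that these effects were equal.

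At single peaks of Gzmb, Havcr2, Serpinb9, Ifng and Sik3 PGE2 raised accessibility at rest and lowered it during stimulation. The Gzmb promoter averaged 509 ± 41.8 at rest, 831 ± 69.7 at rest with PGE2, 1415 ± 88.5 with stimulation and 1027 ± 119 with both. Its PGE2 effect was 0.71 ± 0.09 at rest and −0.47 ± 0.09 under stimulation, a difference of −1.17 ± 0.13, limma adjusted p = 2.16e-08. Havcr2 took the same course, with 95.1 ± 15.2, 233 ± 10.4, 665 ± 46.1 and 446 ± 10.5 in that order (difference −1.87 ± 0.24, limma adjusted p = 3.97e-07). So did Serpinb9, at 98.4 ± 8.18, 219 ± 10.6, 551 ± 74.5 and 347 ± 32.6 (difference −1.81 ± 0.19, limma adjusted p = 7.55e-09), and the distal Ifng peak, at 112 ± 16.8, 208 ± 6.61, 326 ± 26.3 and 264 ± 13.3 (difference −1.20 ± 0.17, limma adjusted p = 1.47e-06). The Sik3 intron peak that rose at rest by 1.75 ± 0.20 fell under stimulation by −0.65 ± 0.19 (difference −2.41 ± 0.27, limma adjusted p = 4.39e-08).

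Other peaks opened by PGE2 at rest were already open in stimulated cells without it. Klc1 averaged 13.2 ± 3.46 untreated and 123 ± 24.7 with PGE2 at rest, and 202 ± 48.2 and 245 ± 36.3 under stimulation, where PGE2 did not pass the test (0.30 ± 0.21, limma adjusted p = 0.27). Tnfaip3 stood at 57.1 ± 18.7, 229 ± 17.1, 239 ± 20.99 and 292 ± 40.4 (difference of effects −1.75 ± 0.25, limma adjusted p = 2.1e-06), and the intronic Crem peak at 368 ± 26.9, 594 ± 70.9, 603 ± 50.01 and 689 ± 49.5 (difference −0.49 ± 0.14, limma adjusted p = 0.0101). Among closed peaks, Gnas stood at 554 ± 63.7, 237 ± 31.1, 214 ± 38.5 and 200.3 ± 26.9 (difference 1.13 ± 0.22, limma adjusted p = 0.000239). The chemokine promoters fell in both states: Ccl3 by −1.14 ± 0.13 and −1.61 ± 0.12 and Ccl4 by −0.81 ± 0.12 and −1.55 ± 0.11, the difference passing for Ccl4 (−0.73 ± 0.17, limma adjusted p = 0.00103) and not for Ccl3 (−0.47 ± 0.18, limma adjusted p = 0.0541).

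**Figure D5:**
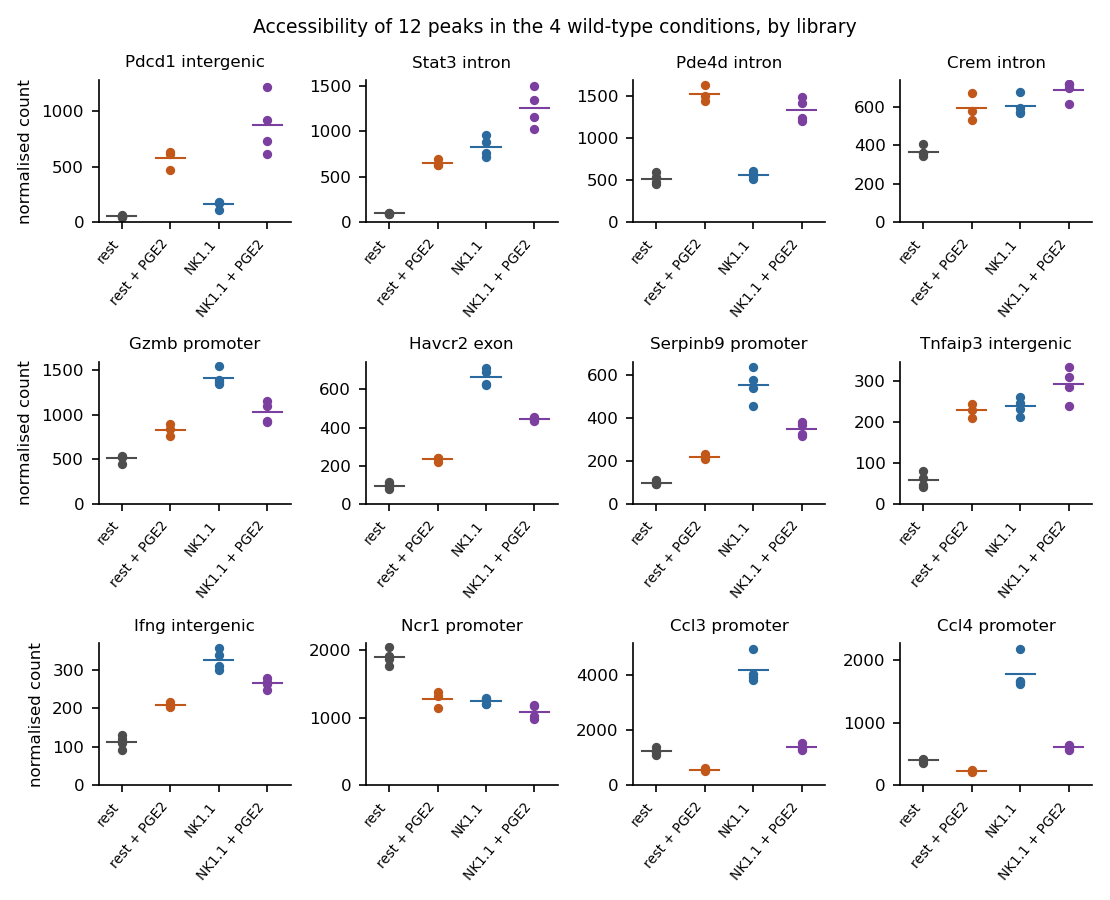
Normalised counts of 12 peaks in each WT library at rest, at rest with PGE2, with NK1.1 stimulation, and with both, 1 point per library and a bar for each mean, on axes that start at 0. The Pde4d intron peak is high in both PGE2 groups, the Gzmb, Havcr2 and Serpinb9 peaks are highest with stimulation alone, and Ccl3 and Ccl4 are low in resting cells with PGE2.

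The promoter letters were also counted across genes. A RefSeq start of the named gene lay inside 8364 of the 12048 promoter-class peaks, 128 of them called higher and 193 called lower, and windows of 300 bases at these starts were searched on both strands for 13 motifs. The full cAMP response element TGACGTCA was in 3.49% of all windows, in 6 of 128 opened ones (4.69%) and in 1 of 193 closed ones (0.52%). Its core TGACG, which the full element contains, was in 33.1%, 45.3% and 19.2% of the same windows. The AP-1 letters TGANTCA were in 4.38% of all, 12.5% of opened (16 windows) and 3.63% of closed windows, NFAT letters TGGAAA in 15.3%, 21.1% and 13%, and SP and KLF letters GGGCGG in 69%, 61.7% and 63.7%. ETS letters CCGGAAGT were in 8.75%, 3.12% and 6.74%, and STAT letters TTCNNNGAA in 6.44%, 10.2% and 9.33%. The RUNX letters marked in the closed Klra1 promoter were in 1.15% of all, 3.12% of opened (4 windows) and 2.59% of closed windows (5 windows). Not all 13 motifs are printed. Median GC content was 62% over all windows, 58.7% in opened and 59.7% in closed ones. These shares are descriptions of small sets of promoters, and most opened peaks lay outside promoters, where no sequence was searched.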

How the data were processed

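ATAC-seq libraries of cultured mouse NK cells were analysed, 30 in 8 groups, of which 7 form the comparison of PGE2 with no treatment in resting WT cells. The submitters' processing notes name Trimmomatic 0.39, Bowtie2 2.4.1, MACS2 2.2.7.1, DESeq2 and build mm10. The DESeq2 version, the removal of duplicates and any shift for the transposase are not given in the sources used here. In all, the authors deposited 1 table with a signal for every peak in each library, namely its read count over that library's size factor. Whole reads were recovered from these values, 100% of them within a tolerance of 0.05 of a whole number in the 7 libraries, with a largest deviation of 0.0228. At most 6 peaks of a library held 0 reads.

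Peaks with a mean of at least 10 over all libraries were tested (38525 of 38526). The main test was limma 3.58.1 (R 4.3.3) with trend on log2(normalised count + 1), 1 mean per group over all 30 libraries, two-sided, with Benjamini-Hochberg adjustment over all tested peaks and a threshold of 0.05. Log2 changes are on that scale, which shrinks those of low peaks. Alternatives were edgeR 4.0.16 (quasi-likelihood) and DESeq2 1.42.0 on recovered reads, other scalings, pseudocounts and filters, fits on the groups compared alone, a replicate block, and leaving out each library. The model scripts were tested on simulated data. Genes and classes are those of the table. Distances and promoter sequences are from RefSeq, GRCm38.p6.

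The comparison, the 30 gene lists and the motifs were chosen with earlier results of these data known. By rule the text names, from the resting WT test, the 15 largest rises and falls without overlap whose higher group averaged at least 50, 10 promoters each way, the genes with the most called peaks, for each list the 4 or fewer genes with the lowest p, the largest interactions, and the peaks of Ptger2, Ptger4, Gnas, Pdcd1, Nt5e, Stat3, Crem, Gzmb, Ccl3, Ifng and Eomes. Not all that the rule named are printed. Outside it, and chosen after their values were seen, are 8 peaks (of Ccl5, Nkg7, Sik3, Dusp1, Maff, Ifngr1, Ptpn6 and S1pr5), the other list genes given only by counts, and the promoters shown. Assignments within families of similar genes (Klra, Ccl, Gzm, Serpinb9) are uncertain.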

Additional observations from a re-analysis of the deposited data

Results flagged for a closer look

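The effect of PGE2 at rest differed between WT and KO, by limma's interaction test (adjusted p under 0.05), at 59 of the 67 peaks printed in the report. Values are log2 effects, with the KO's subtracted from the one in WT. The difference was positive at Klc1 (3.13), Pdcd1 at chr1:94074313-94075538 (2.99), Myo16 (2.89), Uchl5 (2.58), Map3k1 (2.49), Stat3 at chr11:100933480-100934628 (2.44), Nt5e at chr9:88276060-88276719 (2.41) and Ddit4 (2.17). It was smaller but of the same sign at Etv6 (2.05), Rgs2 (2.02), Pdcd1 at chr1:94055688-94056590 (2.02), Cflar (2.02), Tnfaip3 (1.99), Nkg7 at chr7:43434624-43435185 (1.69), Sik3 at chr9:46082965-46084086 (1.58) and Hdac4 (1.52). Further positive differences were found at Ccnl1 (1.50), Stat5a (1.47), Ifngr1 (1.43), Rptor (1.37), Bach2 at chr4:32587487-32588873 (1.36), Itgb3 (1.34), Cxcr4 (1.32) and Tgfbr2 (1.30). Values for others were as follows: Pde4d (1.29), Sik1 (1.26), Havcr2 (1.26), Fosl2 (1.25), Serpinb9 (1.24), Stat3 at chr11:100921031-100921965 (1.20), Il10 (1.06) and Nt5e at chr9:88273135-88274273 (1.06). The remaining ones with this sign were Dad1 (0.99), Ifng at chr10:118458536-118459491 (0.82), Fasl (0.79), Bach2 at chr4:32342857-32344521 (0.76), Tigit (0.60), Gzmb at chr14:56261712-56262972 (0.56), Pde4b (0.54) and Crem (0.53). The smallest was at Dusp1 (0.40). Negative differences were found at Slc38a1 (−1.34), Ccl3 at chr11:83641258-83641649 (−1.29), Gnas (−1.25), Hdac9 (−1.15), Ccl3 at chr11:83646107-83649993 (−1.13), Tnfsf8 (−1.12), Ccl9 (−1.06) and Gzmb at chr14:56293113-56293692 (−0.98). Smaller ones of that sign were at Ptpn6 (−0.96), Klra1 (−0.87), Stat3 at chr11:100931499-100932071 (−0.81), Ccl4 (−0.70), Sik3 at chr9:46151270-46152167 (−0.67), Ccl5 (−0.65), Ncr1 (−0.61) and S1pr5 (−0.56). The least negative were Klrk1 (−0.55) and Nkg7 at chr7:43436201-43438003 (−0.42). The KO also carries GzmbCre, so the genotypes differ in more than the receptors.

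In WT cells the effect also differed between activation states at 39 of these peaks, given as the log2 effect with NK1.1 minus that at rest. The effect was more negative under stimulation at Klc1 (−2.84), Map3k1 (−2.42), Sik3 at chr9:46082965-46084086 (−2.41), Stat3 at chr11:100933480-100934628 (−2.15), Ddit4 (−1.99), Havcr2 (−1.87), Ccnl1 (−1.81) and Serpinb9 (−1.81). Lesser shifts to the negative were at Tnfaip3 (−1.75), Fosl2 (−1.55), Rgs1 (−1.55), Myo16 (−1.51), Etv6 (−1.47), Cflar (−1.36), Pdcd1 at chr1:94055688-94056590 (−1.30) and Ccl9 (−1.23). Another group comprised Ifng at chr10:118458536-118459491 (−1.20), Rgs2 (−1.19), Gzmb at chr14:56261712-56262972 (−1.17), Sik1 (−1.02), Pdcd1 at chr1:94074313-94075538 (−0.99), Nt5e at chr9:88273135-88274273 (−0.94), Ifng at chr10:118466341-118467247 (−0.80) and Ccl4 (−0.73). The smallest shifts of this kind were at Ptger2 (−0.65), Tnfsf8 (−0.64), Ifng at chr10:118440476-118441519 (−0.64), Maff (−0.51), Sik3 at chr9:46151270-46152167 (−0.50) and Crem (−0.49). The effect was more positive under stimulation at Ncald (1.61), Slc38a1 (1.25), Gnas (1.13), Klra1 (0.72), Hdac9 (0.72), Stat3 at chr11:100931499-100932071 (0.66), Klrk1 (0.44) and Ncr1 (0.38). Smaller positive shifts were at S1pr5 (0.38). Both sets of peaks were picked for the resting effect, which enters each difference.

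Untreated library 4 stood apart from the other 3 at the Gzmb promoter, at 447 normalised counts. Chance alone marks about 1 in 20 such groups, and 67 peaks were examined.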

How the results depend on the processing

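Counts of called peaks in the 5 comparisons were recomputed under every alternative, and the promoter share with the stricter filter, with the replicate block and without each library. Of these 221 values 218 stayed within 1.5 times the main count or, for the promoter share, kept the sign of the difference. The exceptions came from leaving out 1 library: without PGE2 library 3 of resting WT, 826 peaks were lower (1554 with it) and 249 had a more negative effect in WT than in the KO (478 with it). Without PGE2 library 3 of the resting KO, 2 peaks were lower there (0 with it). Over all such omissions the resting WT counts ran from 3352 to 3954 higher and 826 to 1365 lower, those in the resting KO were 0 higher and 0 to 2 lower, and those of the difference by genotype ran from 1337 to 2183 and from 249 to 526. In stimulated WT they ran from 6713 to 7381 higher and 6977 to 7535 lower, and those of the difference by state from 3035 to 4243 and 4853 to 5740. In stimulated WT the larger side changed: 8491 were higher and 7038 lower at an equal total in peaks, 7814 and 7800 with TMM scaling, 7158 and 7122 with a mean of at least 50, and 7287 and 7198 without stimulated PGE2 library 3. Leaving out stimulated PGE2 library 4, untreated library 1 or untreated library 4 turned it too, and without stimulated PGE2 library 2 both sides had 7079. The difference in promoter share ran from −2.06 to −0.87. Rises were 72.9% of calls with the deposited scaling and 68.2% when all libraries were scaled to an equal total in peaks.

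Samples of the same number were not shown to be pairs: the residual correlations of numbers 2, 3 and 4 were 0.0752, 0.0491 and 0.0513, though each library correlated best with its own number. With a replicate block 4731 peaks were higher and 1963 lower, and the promoter share differed by −0.92. With the block and only the 2 groups, an alternative added after the data were seen, 4643 were higher and 2235 lower.

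Of 67 printed peaks, only the main Nkg7 promoter peak lost its call under any alternative, when PGE2 library 3 or untreated library 2 was left out. Small lists moved more: 114 of 1080 recomputed list counts changed by more than 1.5 times, most when a library was left out. Counts over all tested peaks also dropped in those fits, to 3352 to 3954 higher and 826 to 1365 lower. List counts after an omission are therefore not to be set against 10.9% and 4.03%. Weak peaks are limited by depth.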
